A study of Mus musculus with 16 samples.

Results

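The genes described here are 10 members of the Notch pathway, namely the ligands Dll1, Dll4, Jag1 and Jag2, the receptors Notch1, Notch2 and Notch4, and the transcriptional repressors Hes1, Hey1 and Hey2. They were selected by symbol, and by Ensembl identifier in the files that list identifiers only. No measured value entered this rule, but earlier results of these data were known when the members were chosen. All 10 were listed among the 38926 gene names of the tables for wildtype and Lats2 mice, and among the 21603 genes of the Yap1/Taz files. In Notch signaling, a Delta-like or Jagged ligand on one cell binds a Notch receptor on its neighbor, and cleavage by gamma-secretase releases the intracellular domain of the receptor. This domain enters the nucleus, binds Rbpj and Maml co-activators, and switches on targets such as the Hes and Hey genes. In endothelial cells (ECs) the pathway is known for selecting tip and stalk cells during sprouting and for arterial specification, and in bone for promoting growth of the metaphyseal vasculature.

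RNA-seq data were available for 16 libraries of ECs sorted by FACS from mouse bone on a C57BL/6 background. Wildtype mice carrying the Cdh5-mT/nG reporter, which labels ECs, gave 3 libraries from the metaphysis (mpECs) and 3 from the diaphyseal bone marrow (bmECs) at 3 weeks of age. Mice with floxed alleles of Yap1 and Wwtr1, the gene encoding Taz, gave 3 control libraries negative for Cdh5CreERT2 and 3 libraries labelled ECKO that were positive for it, all at postnatal day 21. Mice with floxed Lats2, which encodes a Hippo pathway kinase that restrains Yap1 and Taz, gave 2 control libraries (Cre negative) and 2 libraries labelled cKO (Cre positive), also at 3 weeks according to the methods. Controls and mutants of a line therefore shared the floxed alleles and differed by the Cre transgene. Cdh5CreERT2 is expressed in ECs and is activated by tamoxifen, which pups received during early postnatal days. According to the methods, the controls of both lines were littermates of the mutants and sexes were not separated. Whether each library came from a single animal or from a pool is not given in the sources used here, so p-values measure the spread between these libraries. Replicates were separate libraries, and no pair agreed within counting noise.

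The deposited values are FPKM, fragments scaled to gene length and library size. Reads recovered from the steps of these values numbered 11112683 to 14741787 per library for mpECs and bmECs, 4885988 to 7160609 for the Yap1/Taz line and 4728679 to 7067428 for the Lats2 line. For a gene of 2000 bases, 1 read was worth 0.0405 to 0.0608 FPKM in the first set and 0.0727 to 0.133 FPKM in the other two. All 10 genes of a list of endothelial markers, including Cdh5 and Pecam1, were above 0 in every library. Summed markers of blood cells were often higher than the endothelial sum. In mpECs and bmECs, red blood cell (erythroid) markers summed to 28287 to 60421 FPKM and neutrophil markers to 9430 to 27725 FPKM. The endothelial sum there was 1629 to 2145 FPKM. In the Yap1/Taz line the same 3 sums were 4404 to 6577, 1631 to 3820 and 612.7 to 918.4 FPKM. Those of the Lats2 line are given below. In sorted bulk samples, a change in the number of cells of a type and a change in RNA per cell cannot be told apart. The 3 sets were deposited in separate files with no scaling between them stated, and each comparison was therefore made within its own set. Differences are on the scale of log2(FPKM + 1), where changes of weakly expressed genes come out smaller than they are. A gene was called when its Benjamini-Hochberg adjusted p-value from limma was under 0.05 over all genes tested, and a gene was tested if its values averaged 1 FPKM or more in the set.

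The promoters of the ligands and receptors that were called in at least 1 comparison are shown because these genes carry the results below. The sequences are from RefSeq for GRCm38.p6, cover the 250 bases before the transcription start and read 5′ to 3′ on the strand of the gene. Of the 10 members, 8 had a RefSeq window, and Hes1 and Hey1 are named only. The core letters TGGGAA, which Rbpj recognizes, and GGAATG, which TEAD partners of Yap1 and Taz recognize, were searched on both strands, and matches are in capitals. Jag2 is read from chr12:112929496-112929745 on the minus strand, Dll1 from chr17:15376933-15377182 on the minus strand at the more upstream of its 2 starts, Notch4 from chr17:34564045-34564294 on the plus strand and Notch2 from chr3:98013288-98013537 on the plus strand.
Jag2: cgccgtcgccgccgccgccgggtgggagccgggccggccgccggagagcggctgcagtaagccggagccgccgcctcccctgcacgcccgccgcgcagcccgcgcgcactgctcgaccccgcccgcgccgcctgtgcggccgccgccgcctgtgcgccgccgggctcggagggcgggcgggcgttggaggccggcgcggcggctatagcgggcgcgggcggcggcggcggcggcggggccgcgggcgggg
Dll1: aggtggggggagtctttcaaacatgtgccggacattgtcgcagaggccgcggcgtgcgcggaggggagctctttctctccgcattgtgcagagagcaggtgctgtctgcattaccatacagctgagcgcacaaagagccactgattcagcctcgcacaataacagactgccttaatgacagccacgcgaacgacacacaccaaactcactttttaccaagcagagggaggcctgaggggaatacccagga
Notch4: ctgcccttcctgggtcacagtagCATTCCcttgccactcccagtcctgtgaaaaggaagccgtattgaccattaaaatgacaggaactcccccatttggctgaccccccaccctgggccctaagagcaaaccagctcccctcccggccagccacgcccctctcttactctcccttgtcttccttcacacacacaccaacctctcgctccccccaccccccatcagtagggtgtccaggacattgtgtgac
Notch2: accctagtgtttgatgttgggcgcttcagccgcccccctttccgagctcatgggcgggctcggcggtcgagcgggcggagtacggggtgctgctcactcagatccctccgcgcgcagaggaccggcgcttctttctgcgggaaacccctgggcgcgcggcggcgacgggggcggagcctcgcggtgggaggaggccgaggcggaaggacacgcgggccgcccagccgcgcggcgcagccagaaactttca
Over the full windows of 300 bases, which also hold 50 bases after the start, the TEAD letters were found in 14.7% of 32851 RefSeq promoters and the Rbpj letters in 25.6%. Among the members, Notch4 had 1 TEAD match, at position -227 relative to its start, and Notch1 had 2. The window of Hey2 held 2 Rbpj matches and 1 TEAD match, and one of the Rbpj matches shared letters with the TEAD match. The windows of Jag2, Dll1, Notch2, Dll4 and Jag1 held neither set of letters. A match describes letters in these windows and was not tested as a binding site.

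The comparison of bmECs with mpECs asks how the pathway differs between the marrow vasculature and that next to the growth plate. Hey1, Jag2 and Notch4 fell in bmECs and Notch2 rose, while Dll1, Dll4, Jag1, Notch1 and Hes1 were not called. Of the 9 members tested, 4 were called, 3 lower and 1 higher, where 23.5% of 11422 tested genes were called, 10.5% lower and 13.0% higher. The groups did not overlap for 5 of the 9 members, against 41.3% of all genes tested. The median difference was -0.40 over the 9 members and -0.00068 over all genes tested.

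**Figure D1:**
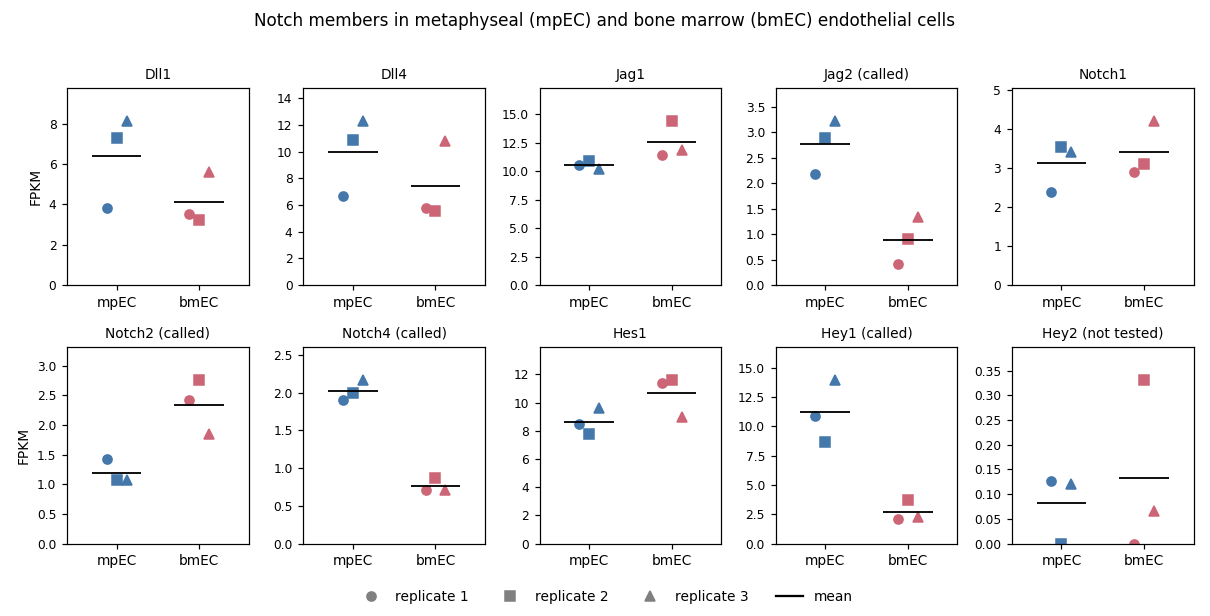
FPKM (vertical axes, each from 0) of the 10 members in 3 mpEC (blue) and 3 bmEC (red) libraries, with marker shapes for the replicate and bars for the group mean. Hey1, Jag2 and Notch4 lay lower and Notch2 higher in all bmEC libraries than in any mpEC library, while Dll1 and Dll4 overlapped.

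Jag2, a Jagged-type ligand encoded at chr12:112907819-112929776 (GRCm38), was at 2.18, 2.89 and 3.23 FPKM in mpEC replicates 1 to 3 and at 0.420, 0.913 and 1.34 FPKM in bmEC replicates 1 to 3. Every bmEC library was below every mpEC library. Group means were 2.76 ± 0.537 and 0.891 ± 0.461 FPKM (SD, n = 3), so that Jag2 fell with a log2 difference of -1.01 (SE 0.21, limma adjusted p = 0.0104). The call held in all 13 alternative fits in which it was tested, including each fit without 1 library.

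Dll4, the tip cell ligand that restrains sprouting of neighboring cells, was at 6.64, 10.9 and 12.3 FPKM in mpECs and at 5.80, 5.57 and 10.8 FPKM in bmECs. Dll1, which is known as an arterial ligand, was at 3.84, 7.27 and 8.13 FPKM in mpECs and at 3.51, 3.21 and 5.58 FPKM in bmECs. In both genes mpEC replicate 1 was the lowest of its group and bmEC replicate 3 the highest of its own, so that the groups overlapped. The log2 differences were -0.40 (95% interval -1.03 to 0.24, limma adjusted p = 0.341) for Dll4 and -0.52 (95% interval -1.13 to 0.10, adjusted p = 0.204) for Dll1. Without mpEC replicate 1, Dll1 was called, with a log2 difference of -0.80 and an adjusted p of 0.0337. Of these 2 libraries, bmEC replicate 3 also stood apart from its group in other genes. Fos, a gene of the early stress response to cell isolation, was at 995.0 and 1249 FPKM in bmEC replicates 1 and 2 but at 242.3 FPKM in bmEC replicate 3, and Dusp1, of the same list, was at 807.0, 973.4 and 270.6 FPKM. The part of this difference in the ligand values was not tested.

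Jag1, a ligand that can oppose Dll4 in sprouting vessels, was at 10.5, 10.9 and 10.2 FPKM in mpECs and at 11.4, 14.4 and 11.8 FPKM in bmECs. All bmEC libraries were above all mpEC libraries, but the log2 difference of 0.23 (95% interval -0.02 to 0.47) was not called (limma adjusted p = 0.171).

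Within each library, the share of each ligand in the summed FPKM of the 4 ligands was computed. Jag2 made up 9.07% to 9.54% of ligand FPKM in the mpEC libraries and 1.98% to 4.54% in the bmEC libraries. Jag1 made up 30.1% to 45.5% in mpECs and 39.95% to 59.8% in bmECs, and these ranges overlapped. The log2 ratio of Jag1 to Dll4 was 0.13 ± 0.48 (SD, n = 3) in mpECs and 0.82 ± 0.64 in bmECs, a difference of 0.69 (exact permutation test, two-sided, p = 0.20). With 3 libraries against 3, the smallest p this test can give is 0.10, which the share of Jag2 reached.

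Among the receptors, Notch4, whose expression is largely restricted to endothelium, fell and Notch2 rose. Notch4 (chr17:34564268-34588503) was at 1.91, 1.99 and 2.17 FPKM in mpECs and at 0.709, 0.866 and 0.706 FPKM in bmECs. The groups were well apart, with means of 2.02 ± 0.135 and 0.760 ± 0.0914 FPKM (SD, n = 3) and a log2 difference of -0.78 (SE 0.13, limma adjusted p = 0.00362) that was called in all 13 alternative fits that tested it. Notch2 (chr3:98013527-98150361) was at 1.43, 1.08 and 1.08 FPKM in mpECs and at 2.42, 2.77 and 1.85 FPKM in bmECs. Its values were higher in every bmEC library, with a log2 difference of 0.60 (SE 0.15, limma adjusted p = 0.0238). The call was lost without mpEC replicate 2 (adjusted p = 0.0715), mpEC replicate 3 (0.0812), bmEC replicate 1 (0.0734) or bmEC replicate 2 (0.0830). A neighboring gene on the same strand covers 5.02% of the Notch2 exon bases.

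Notch1, the receptor central to endothelial sprouting, was at 2.39, 3.54 and 3.41 FPKM in mpECs and at 2.89, 3.11 and 4.20 FPKM in bmECs. These ranges overlapped and the log2 difference was 0.10 (95% interval -0.29 to 0.48, limma adjusted p = 0.715). Of the summed FPKM of the 3 receptors, Notch4 held 30.1% to 33.3% in mpECs and 10.5% to 12.8% in bmECs. Notch2 held 16.2% to 24.9% in mpECs and 27.4% to 41.1% in bmECs. The exact permutation p was 0.10 for both shares, the smallest possible.

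Hey1, a repressor induced directly by the cleaved receptor, showed the largest difference among the members tested. It lies at chr3:8663359-8667256 and was at 10.9, 8.69 and 14.0 FPKM in mpECs and at 2.10, 3.70 and 2.24 FPKM in bmECs. The lowest mpEC library was thus above the highest bmEC library, and Hey1 fell by 1.73 on the log2 scale (SE 0.21, limma adjusted p = 0.000885), a call that held in all 14 alternative fits. Of all genes tested, 1.81% had a larger absolute difference. Hes1, a target that other pathways also induce, was at 8.46, 7.77 and 9.60 FPKM in mpECs and at 11.4, 11.6 and 8.97 FPKM in bmECs. The groups overlapped in Hes1 because bmEC replicate 3 was below mpEC replicate 3, and the log2 difference of 0.28 was not called (95% interval -0.02 to 0.57, limma adjusted p = 0.160). Hey2, an arterial repressor related to Hey1, was listed at 0.127, 0 and 0.121 FPKM in mpECs and at 0, 0.332 and 0.0666 FPKM in bmECs. It was under the filter in all 3 comparisons and was not tested.

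The other genes of the pathway were described with a list of 50 genes. Of these, 32 were tested in this set and 7 were called, 4 higher and 3 lower. This was near the share over all 11422 genes tested, of which 23.5% were called, 13.0% higher and 10.5% lower. Among the genes of gamma-secretase, the protease that releases the Notch intracellular domain, Psen2 rose from 8.69 ± 1.33 to 33.9 ± 1.49 FPKM (SD, n = 3; log2 difference 1.86, limma adjusted p = 4.32e-05). Ncstn, which encodes another subunit of this protease, rose by 0.51 on the log2 scale, and the co-activator gene Maml2 rose by 0.73. The targets Efnb2, an arterial ephrin ligand, and Nrarp, a feedback inhibitor of Notch, fell by 1.95 (adjusted p = 0.000141) and 0.96 (adjusted p = 0.00381). Neurl1b, of the neuralized family of ubiquitin ligases, fell by 1.05. The median of the list was 0.07.

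Markers of other cells and of arteries differed between these groups as well. The summed FPKM of 6 arterial genes was 134.3 to 160.3 in mpECs and 30.5 to 42.9 in bmECs, and Efnb2 is on this list too. That of 5 tip cell genes was 52.9 to 66.1 in mpECs and 18.7 to 29.0 in bmECs. For 8 osteoblast genes the sum was 246.9 to 975.3 in mpECs and 45.2 to 60.7 in bmECs, and for 5 chondrocyte genes 18.2 to 22.4 and 0.0116 to 0.201. For 8 pericyte and stromal genes it was 177.8 to 248.8 in mpECs and 482.6 to 527.4 in bmECs, and for 5 macrophage genes 127.7 to 165.2 and 340.1 to 412.1. Of the osteoclast list, which summed to 28.2 to 48.3 FPKM in mpECs and 12.5 to 17.6 FPKM in bmECs, the defining gene Calcr was at 0 in every library of the series. The endothelial sum was 1629 to 1999.8 FPKM in mpECs and 2017 to 2145 FPKM in bmECs, and the sum of 6 proliferation genes 172.1 to 246.9 and 100.2 to 118.6 FPKM. Sums of the erythroid, neutrophil, B cell, megakaryocyte and stress lists overlapped between the groups. The part of these other cells in the member values was not tested.

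The comparison of the libraries labelled ECKO with their controls asks what the loss of Yap1 and Taz from ECs does to the pathway. In FPKM over the whole gene, neither targeted gene was lower in the libraries labelled ECKO beyond the spread between replicates. Yap1 was at 1.07, 1.62 and 0.995 FPKM in the controls and at 1.43, 1.03 and 0.989 FPKM in the libraries labelled ECKO, and was not called (limma adjusted p = 0.934). Wwtr1 was at 10.01, 9.88 and 10.3 FPKM in the controls and at 15.3, 19.6 and 19.5 FPKM in the libraries labelled ECKO, and thus rose by a log2 difference of 0.78 (adjusted p = 0.0272). Which exons are floxed was not used here, and a value over the whole gene may not register the loss of single exons. These values do not settle whether a library matches its label, and the study's qPCR and immunostaining were not used here. Directions below are therefore those between the labelled libraries.

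Dll1 rose in the libraries labelled ECKO, and the other 3 ligands and Hes1 were higher there in every library without passing the test. Of 9 members tested, 1 was called, where 1.31% of 11320 tested genes were called, 0.883% higher and 0.424% lower. The groups did not overlap for 6 of the 9 members, against 23.6% of all genes tested. The median difference was 0.54 over the members and -0.0047 over all genes. The unadjusted limma p was under 0.05 for 6 of the 9 members and for 2023 of all 11320 genes tested. All differences of the members were above 0 except that of Notch2.

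**Figure D2:**
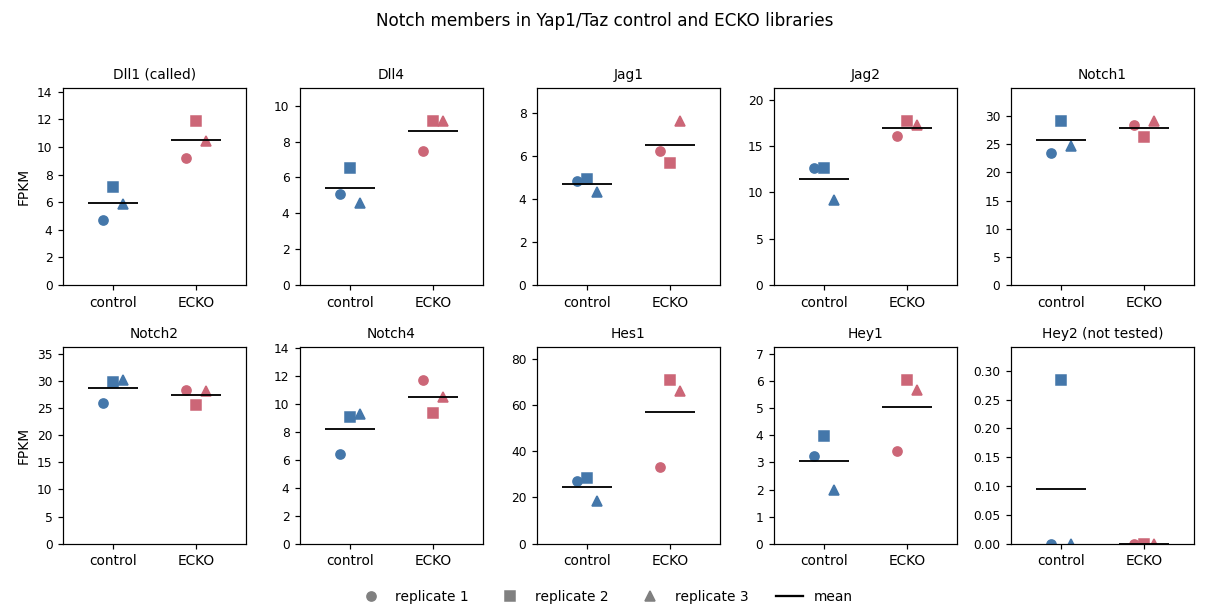
FPKM (vertical axes, each from 0) of the 10 members in 3 control (blue) and 3 libraries labelled ECKO (red) of the Yap1/Taz line, with marker shapes for the replicate and bars for the group mean. Dll1, Dll4, Jag1, Jag2, Notch4 and Hes1 did not overlap between groups, and Hes1 in ECKO replicate 1 lay close to the controls.

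Dll1 (chr17:15367354-15376872) was at 4.74, 7.09 and 5.90 FPKM in the controls and at 9.19, 11.9 and 10.4 FPKM in the libraries labelled ECKO. The values did not overlap, and the mean rose from 5.91 ± 1.17 to 10.5 ± 1.35 FPKM (SD, n = 3), a log2 difference of 0.74 (SE 0.15, limma adjusted p = 0.0469). This call was just under the threshold and held in 5 of 14 alternative fits. It was lost without control replicate 1 (adjusted p = 0.0655), 2 (0.0752) or 3 (0.105) and without ECKO replicate 2 (0.228) or 3 (0.172). Of the exon bases of Dll1, 20.6% overlap a gene on the other strand, and whether counting used the strand is not given in the sources used here.

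Dll4 was at 5.09, 6.52 and 4.57 FPKM in the controls and at 7.45, 9.15 and 9.14 FPKM in the libraries labelled ECKO. Jag2 was at 12.6, 12.7 and 9.17 FPKM in the controls and at 16.1, 17.7 and 17.2 FPKM in the libraries labelled ECKO. Jag1 was at 4.84, 4.91 and 4.30 FPKM in the controls and at 6.21, 5.67 and 7.61 FPKM in the libraries labelled ECKO. All 3 ligands were separate between the groups but missed the threshold, with log2 differences of 0.59 (limma adjusted p = 0.0725), 0.54 (adjusted p = 0.0735) and 0.39 (adjusted p = 0.159). Jag2 held 38.3% to 46.3% of ligand FPKM in the controls and 38.8% to 41.3% in the libraries labelled ECKO, the largest share among the ligands in every library of the line. The log2 ratio of Jag1 to Dll4 was -0.19 ± 0.19 (SD, n = 3) in the controls and -0.41 ± 0.25 in the libraries labelled ECKO (exact permutation test, two-sided, p = 0.30).

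Notch1, Notch2 and Hes1 were the most abundant members of this line by FPKM. Notch2 was at 25.8, 29.7 and 30.2 FPKM in the controls and at 28.2, 25.6 and 28.0 FPKM in the libraries labelled ECKO. Notch1 was at 23.4, 29.1 and 24.7 FPKM in the controls and at 28.4, 26.3 and 29.0 FPKM in the libraries labelled ECKO. Neither was called, with log2 differences of -0.06 (95% interval -0.29 to 0.16) for Notch2 and 0.12 (95% interval -0.12 to 0.36) for Notch1. Notch4 was at 6.38, 9.01 and 9.28 FPKM in the controls and at 11.7, 9.31 and 10.5 FPKM in the libraries labelled ECKO, a log2 difference of 0.33 (limma adjusted p = 0.283). Of the receptor FPKM, Notch2 held 43.8% to 47.1% in the controls and 41.3% to 41.8% in the libraries labelled ECKO (exact permutation p = 0.10, the smallest possible).

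Hes1 (chr16:30064384-30067796) was at 27.1, 28.3 and 18.6 FPKM in the controls and at 33.1, 71.0 and 66.2 FPKM in the libraries labelled ECKO. ECKO replicate 1 was near the controls and the other two were far above them. The log2 difference of 1.12 (SE 0.26, 95% interval 0.53 to 1.71) was larger in absolute value than that of all but 0.292% of genes tested but was not called (limma adjusted p = 0.0665). Without ECKO replicate 1 it was 1.46 and was called (adjusted p = 0.00744), and over all alternatives the adjusted p ranged from 0.00744 to 0.262. Hey1 was at 3.25, 3.96 and 1.98 FPKM in the controls and at 3.40, 6.06 and 5.67 FPKM in the libraries labelled ECKO. Its groups overlapped in ECKO replicate 1, the library that was also lowest for Hes1, and the log2 difference was 0.57 (95% interval 0.07 to 1.08, limma adjusted p = 0.222). Hey2 was listed at 0, 0.285 and 0 FPKM in the controls and at 0 in each library labelled ECKO.

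Of the list of 50 pathway genes, 39 were tested and 1 was called, where 1.31% of all 11320 genes tested were called. The called gene was Neurl3, of the neuralized family of ubiquitin ligases. It was at 51.1, 42.2 and 37.1 FPKM in the controls and 61.3, 70.1 and 80.8 FPKM in the libraries labelled ECKO. The log2 difference was 0.69 (limma adjusted p = 0.0469). Of these 39 genes, 23 were above 0 and 16 below, with a median of 0.09.

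Endothelial markers differed between these groups too. The summed FPKM of the 10 endothelial genes was 612.7 to 640.4 in the controls and 790.9 to 918.4 in the libraries labelled ECKO, a log2 ratio of the means of 0.47. Cldn5, a tight junction gene of this list, was at 89.5, 92.3 and 71.4 FPKM in the controls and at 161.3, 193.8 and 185.1 FPKM in the libraries labelled ECKO. Arterial genes summed to 14.9 to 20.6 FPKM in the controls and 22.6 to 24.8 FPKM in the libraries labelled ECKO, tip cell genes to 197.8 to 262.3 and 282.1 to 336.0 FPKM, and proliferation genes to 261.4 to 284.5 and 234.4 to 244.1 FPKM. The stress list of 10 genes summed to 1867 to 1927 FPKM and 1944 to 2388 FPKM. In that list Junb was at 879.3, 1213 and 1207 FPKM in ECKO replicates 1 to 3 and at 655.6 to 759.3 FPKM in the controls, the same order of libraries as Hes1 in ECKO. Junb was picked after its values were seen and does not stand for the list. The means of the whole list had a log2 ratio of 0.24, a rise in FPKM smaller than that of Junb alone. The osteoblast sum was 37.9 to 57.8 FPKM in the controls and 9.14 to 26.6 FPKM in the libraries labelled ECKO, the B cell sum 196.7 to 224.7 and 158.5 to 164.0 FPKM, and the pericyte and stromal sum 63.5 to 72.7 and 80.2 to 102.8 FPKM. Erythroid, neutrophil, macrophage, megakaryocyte, osteoclast and chondrocyte sums overlapped. Their part in the ligand and Hes1 values was not tested.

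The comparison of libraries labelled Lats2 cKO with their controls asks how the pathway behaves when the kinase upstream of Yap1 and Taz is targeted. Lats2 itself was at 23.4 and 24.0 FPKM in the controls and at 19.2 and 19.2 FPKM in the libraries labelled cKO. These values did not overlap, but the log2 difference of -0.29 was not called (limma adjusted p = 0.125). A value over the whole gene may not register the loss of single exons here either. Wwtr1 rose from 53.8 and 58.9 FPKM to 83.3 and 92.5 FPKM (log2 difference 0.63, adjusted p = 0.0257).

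Jag2 rose in the libraries labelled cKO and was the only member called. Of the 8 members tested, 1 was called, where 21.8% of 12453 tested genes were called, 11.8% higher and 9.98% lower. The groups did not overlap for 6 of the 8 members, against 68.2% of all genes tested. The median difference was 0.35 over the members and -0.0033 over all genes. The share of members called was under that of all genes.

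**Figure D3:**
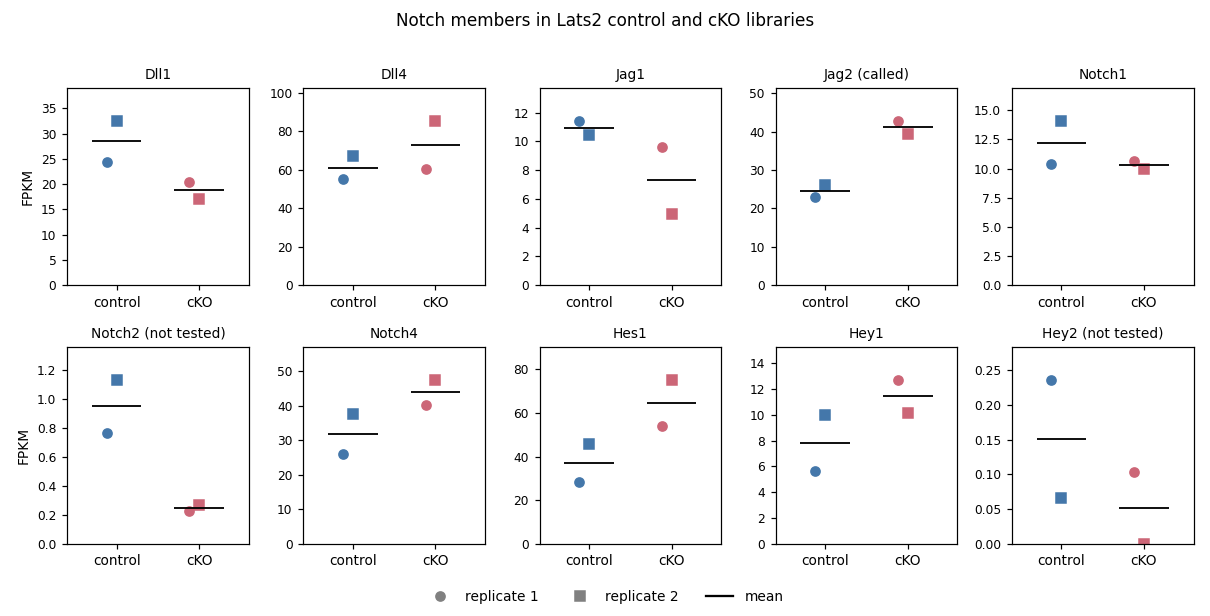
FPKM (vertical axes, each from 0) of the 10 members in 2 control (blue) and 2 libraries labelled cKO (red) of the Lats2 line, with marker shapes for the replicate and bars for the group mean. Jag2 lay near 41 FPKM in both libraries labelled cKO and near 25 FPKM in both controls, while Dll4 and Notch1 overlapped.

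Jag2 was at 23.1 and 26.2 FPKM in the controls and at 42.8 and 39.5 FPKM in the libraries labelled cKO. The distance between the groups was larger than the spread within them, with means of 24.6 ± 2.17 and 41.2 ± 2.31 FPKM (SD, n = 2) and a log2 difference of 0.72 (SE 0.13, limma adjusted p = 0.0208). The call held in 8 of 12 alternative fits and was lost in each of the 4 fits without 1 library (adjusted p = 0.179 without control replicate 1, 0.139 without control replicate 2, 0.0517 without cKO replicate 1 and 0.0584 without cKO replicate 2).

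Dll4 was the most abundant ligand, at 54.9 and 67.2 FPKM in the controls and at 60.3 and 85.3 FPKM in the libraries labelled cKO. The groups overlapped, and the log2 difference was 0.24 (95% interval -0.29 to 0.76, limma adjusted p = 0.445). Dll1 was at 24.4 and 32.5 FPKM in the controls and at 20.5 and 17.1 FPKM in the libraries labelled cKO, a log2 difference of -0.56 (adjusted p = 0.0826). Jag1 was at 11.4 and 10.5 FPKM in the controls and at 9.64 and 4.93 FPKM in the libraries labelled cKO. Both libraries labelled cKO were thus below the controls, cKO replicate 2 by more than replicate 1, and the log2 difference of -0.59 was not called (95% interval -1.32 to 0.15, adjusted p = 0.204). Without cKO replicate 1, Jag1 was called, with a log2 difference of -1.01 and an adjusted p of 0.0316, a fit that rests on 1 library labelled cKO and assumes that it varies like the controls.

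Jag2 made up 19.2% and 20.3% of the ligand FPKM in the controls and 26.9% to 32.1% in the libraries labelled cKO, and Dll1 21.5% to 23.8% and 11.7% to 15.4%. The log2 ratio of Jag1 to Dll4 was -2.47 ± 0.29 (SD, n = 2) in the controls and -3.38 ± 1.04 in the libraries labelled cKO (exact permutation test, two-sided, p = 0.667). With 2 libraries against 2, no exact p can go below 0.333.

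Notch4 was the most abundant receptor, at 26.1 and 37.8 FPKM in the controls and at 40.4 and 47.6 FPKM in the libraries labelled cKO. Its groups were separate, but the log2 difference of 0.47 was not called (95% interval -0.05 to 0.99, limma adjusted p = 0.161). Notch1 was at 10.4 and 14.1 FPKM in the controls and at 10.7 and 9.94 FPKM in the libraries labelled cKO, a log2 difference of -0.21 (adjusted p = 0.425). Notch2 was at 0.765 and 1.14 FPKM in the controls and at 0.227 and 0.268 FPKM in the libraries labelled cKO. It was under the filter, although both libraries labelled cKO were below both controls. Of the receptor FPKM, Notch4 held 70.1% to 71.3% in the controls and 78.8% to 82.4% in the libraries labelled cKO.

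Hes1 was at 28.5 and 46.0 FPKM in the controls and at 54.2 and 75.3 FPKM in the libraries labelled cKO. The groups were separate and the log2 difference was 0.80 (95% interval 0.109 to 1.496), which was not called (limma adjusted p = 0.0942). Hey1 was at 5.66 and 9.996 FPKM in the controls and at 12.7 and 10.1 FPKM in the libraries labelled cKO. Here control replicate 2 nearly reached cKO replicate 2, and the log2 difference of 0.53 was not called (adjusted p = 0.216). Hey2 was listed at 0.236 and 0.0659 FPKM in the controls and at 0.104 and 0 FPKM in the libraries labelled cKO.

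Of the 50 other pathway genes, 37 were tested and 9 were called, 3 higher and 6 lower. This was near the share over all 12453 genes tested, of which 21.8% were called, 11.8% higher and 9.98% lower. Nrarp, the feedback inhibitor, was at 34.5 and 45.3 FPKM in the controls and at 107.2 and 141.5 FPKM in the libraries labelled cKO. This was the largest difference of the list, 1.61 on the log2 scale (SE 0.20, limma adjusted p = 0.0115), and 10 of 12 alternative fits called it. Lfng, which encodes a glycosyltransferase that modifies Notch receptors and alters their response to ligands, fell from 73.4 ± 4.20 to 35.1 ± 6.13 FPKM (SD, n = 2; log2 difference -1.05, adjusted p = 0.0150). Neurl1b rose by 0.76 on the log2 scale. Dtx4, of the deltex family of ubiquitin ligases, the gamma-secretase gene Psen2 and the co-activator gene Maml3 fell by 1.48, 0.91 and 0.81. The median of the list was -0.09.

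Tip cell markers differed between these groups by far more than the members. The summed FPKM of 5 tip cell genes was 69.9 to 85.3 in the controls and 928.1 to 2022 in the libraries labelled cKO, and cKO replicate 2 was the higher of the pair. The endothelial sum was 2650 to 2918 FPKM in the controls and 2423 to 2607 FPKM in the libraries labelled cKO. Sums of other cell types were lower in the libraries labelled cKO, with 2412 to 3655 FPKM against 241.6 to 1392 FPKM for erythroid genes, 1918 to 2873 against 702.9 to 843.1 FPKM for neutrophil genes, 147.9 to 169.4 against 28.2 to 64.5 FPKM for macrophage genes, and 390.7 to 438.3 against 128.0 to 145.5 FPKM for pericyte and stromal genes. B cell and megakaryocyte sums were lower as well, at 78.0 to 89.5 against 23.0 to 29.4 FPKM and 29.3 to 108.3 against 9.72 to 12.1 FPKM. Proliferation and osteoclast sums were higher, at 63.8 to 68.0 against 85.1 to 112.3 FPKM and 5.04 to 5.24 against 6.69 to 7.99 FPKM, and arterial, osteoblast, chondrocyte and stress sums overlapped. Their part in the member values was not tested.

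**Figure D4:**
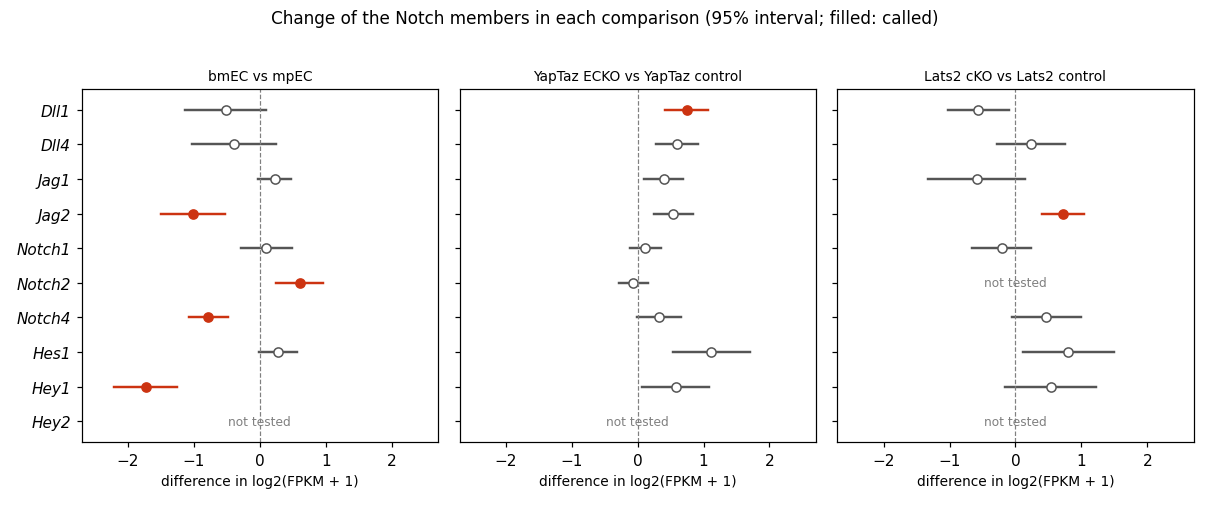
Difference in log2(FPKM + 1) of each member (horizontal axes) for bmEC against mpEC, ECKO against control and Lats2 cKO against control, with 95% intervals from limma; filled red points are called. In the first comparison 3 members lay below 0 and 1 above as called, and in the other two only Dll1 and only Jag2.

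Set side by side, the 3 comparisons gave different called members, and the differences between comparisons were not tested. Jag2 had log2 differences of -1.01 in bmECs, 0.54 in the libraries labelled ECKO and 0.72 in those labelled cKO. Hey1 had -1.73, 0.57 and 0.53, and Notch4 had -0.78, 0.33 and 0.47. Hes1 had 0.28, 1.12 and 0.80, and Dll1 had -0.52, 0.74 and -0.56. Other than Jag2, none of these members was called in more than 1 of the 3 comparisons.

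**Figure D5:**
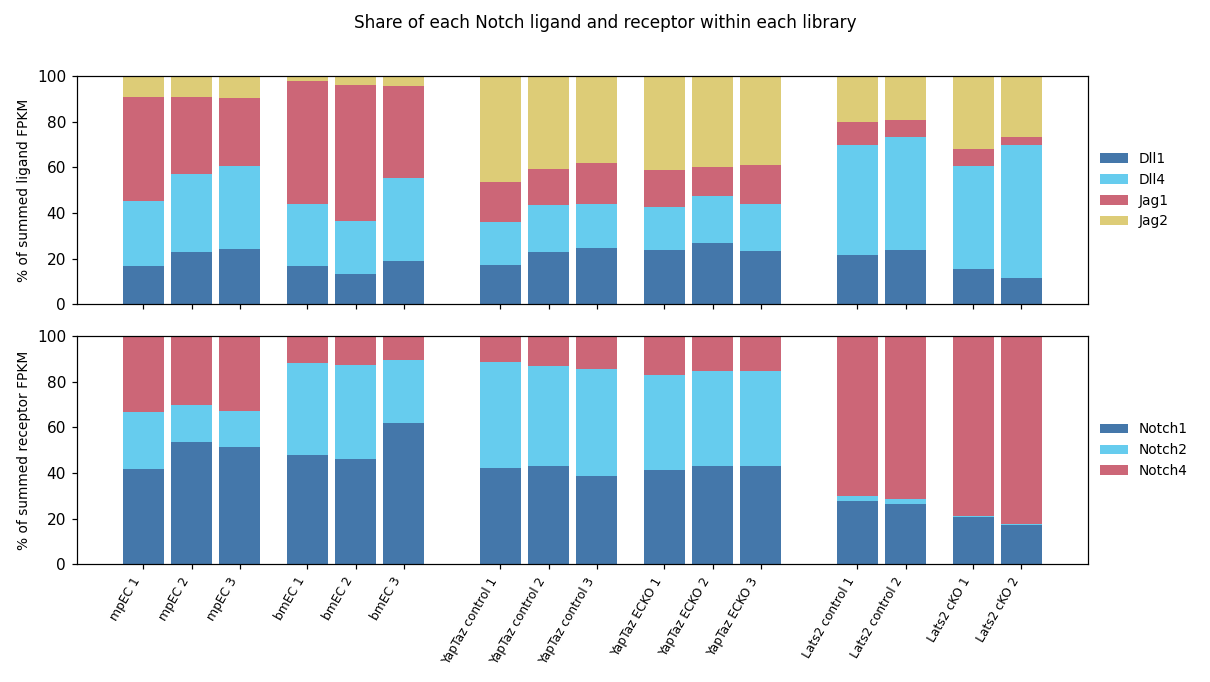
Share in percent (vertical axes) of each ligand in the summed FPKM of 4 ligands (top) and of each receptor in that of 3 receptors (bottom), with 1 stacked bar per library. Jag1 and Dll4 were the largest ligand shares in the mpEC and bmEC libraries, Jag2 in the Yap1/Taz line and Dll4 in the Lats2 line.

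The order of the members within a set also differed between sets, which are not on a shared scale. In mpECs, Hey1, Jag1 and Dll4 were the most abundant by FPKM, with means of 11.2, 10.5 and 9.94 that do not differ beyond their spread. In bmECs, Jag1 at 12.5 ± 1.62 FPKM and Hes1 at 10.7 ± 1.47 FPKM (SD, n = 3) led and did not differ beyond their spread. The controls of the Yap1/Taz line were led by Notch2, Notch1 and Hes1 at 28.6, 25.7 and 24.7 FPKM, again within their spread, and those of the Lats2 line by Dll4 at 61.0 ± 8.71 FPKM (SD, n = 2). Notch2 was at 25.6 to 30.2 FPKM in the 6 libraries of the Yap1/Taz line and at 0.227 to 2.77 FPKM in the 10 libraries of the other sets.

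As a description of likeness, each member was correlated with 4947 genes that averaged at least 5 FPKM in all 3 sets, over the 16 libraries after each set was centred on its own mean. Group differences within a set and the depth of each library are shared by these points. For Jag2 the highest Pearson r were those of N4bp3 (0.97), Mcam (0.96), which encodes the endothelial adhesion molecule CD146, and Ptprm (0.95). Hes1 was most like Hilpda (0.97), which encodes a lipid droplet protein, Sertad1 (0.94) and Fosl2 (0.94), an AP-1 subunit. Hey1 was most like Podxl (0.93), Bcl6b (0.93) and St8sia4 (0.92), and Notch2 most like Gm2a (0.94), 1600014C10Rik (0.93) and Axl (0.92). The nearest genes of Notch4 were Nudt4 (0.92), Sfpq (0.90) and Anxa3 (0.90), those of Dll1 Jup (0.92), Mxd4 (0.90) and Atp13a1 (0.90), and those of Dll4 Map2k3 (0.88), Efna1 (0.86) and Fscn1 (0.85). Jag1 was nearest to Phldb2 (0.88), Kpna1 (0.86) and Usp38 (0.85), and Notch1 to Epas1 (0.84), Hgs (0.82) and Sec24c (0.79). Among the members themselves, Jag2 and Hey1 were the most alike pair (0.87).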

How the data were processed

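The labels and the methods describe total RNA from FACS-sorted ECs, a TruSeq Stranded Total RNA kit, mapping to GRCm38 with TopHat, and counting per gene with HTSeq 0.6.1. The labels also name DESeq2, the authors' own test. The authors deposited FPKM values per library; how counts became FPKM, with which gene lengths, is not given in the sources used here. No column was left without a sample (0). The members and gene lists were chosen with earlier results of these data known. From the FPKM, log2(FPKM + 1) was tested with limma 3.58.1 under R 4.3.3 (a group term, mean-variance trend, two-sided, Benjamini-Hochberg adjusted), for genes averaging 1 FPKM or more. Reads were recovered as FPKM times GENCODE M21 exon length and a library factor; of values of at most 20 reads, 62.7% to 70.3% lay within 0.02 of a whole number, against 4% by chance. The limma calls, not the recovery of reads, were checked on simulated reads with 200 genes changed. Of genes changed by 1 on the log2 scale, 80.6% (bmEC), 68.7% (ECKO) and 62.5% (Lats2) were called. Of those changed by 2, 100%, 100% and 90.4% were called. A gene that was not called may therefore still differ. The simulation used the same setting for the spread between replicates for all genes of a set. It changed 200 genes, whereas 2682 (bmEC) and 2711 (Lats2) were called in the data. These shares may thus not hold for the members, least of all for weakly expressed ones. Shares used exact permutation tests. Named were all members, the targeted genes, up to 4 pathway genes per comparison and direction by absolute change among those called without overlap, and 3 like genes per member. Some of the pathway genes this rule names are not reported here. Marker genes named beside a result were chosen after their values were seen. Alternatives were a pseudocount of 0.1, no filter, a filter at 5 FPKM, median-ratio and quantile scaling, a replicate block, no trend, voom on recovered reads, an adjusted p under 0.01 with an absolute log2 difference over 0.5, and each library left out.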

Additional observations from a re-analysis of the deposited data

How the results depend on the processing

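For bmECs against mpECs, 4 members were called and 7 genes of the pathway list. The member count was 1 with the filter at 5 FPKM, which tests fewer genes, 2 under the strict rule (Notch4 and Hey1), and 3 to 5 without 1 library. For the libraries labelled ECKO, where 1 member and 1 list gene were called, both counts were 0 with a pseudocount of 0.1, with no filter, without the mean-variance trend and under the strict rule. Voom on recovered reads called 3 members (Dll1, Jag2 and Hes1), and without 1 library the counts ran from 0 to 2 for members and from 0 to 2 for the list. For the libraries labelled Lats2 cKO, the member count of 1 became 0 under the strict rule and 0 to 1 without 1 library, and the list count of 9 became 4 with no filter, 0 under the strict rule and 0 to 5 without 1 library. The cause of these changes was not tested. Left-out fits of the Lats2 line keep 1 library in an arm, which is assumed to vary like the other group.

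The log2 ratio of Jag1 to Dll4 differed by 0.42 to 1.04 (bmEC), -0.33 to -0.07 (ECKO) and -1.64 to -0.17 (Lats2) without 1 library. Without 1 library, Notch1 in bmECs ranged from -0.037 to 0.18 (negative without mpEC replicate 1, or at -0.03 without bmEC replicate 3) and Dll4 in the Lats2 line from -0.011 (without cKO replicate 2) to 0.48, never called. A pseudocount of 0.1 moved the log2 differences of Jag2, Notch4 and Notch2 in bmECs to -1.63, -1.31 and 0.91.

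Whether equal replicate numbers mark paired samples is not given in the sources used here, and the values do not decide it. Deviations of same-numbered samples correlated at 0.31, 0.088 and 0.10 (mpEC and bmEC), -0.18, -0.12 and -0.16 (Yap1/Taz) and 0.065 (Lats2). Those of differently numbered samples ran from -0.21 to 0.12 (mpEC and bmEC) and from -0.15 to 0.24 (Yap1/Taz). Not every sample correlated best with its own number. With 2 libraries per group, the Lats2 correlations can differ only in sign, here 0.065 or -0.065, and say nothing on pairing. With the replicate block, the counts were 4 members and 8 list genes for bmECs against mpECs. Dll1 and Dll4 in that fit had limma adjusted p of 0.0693 and 0.108 and were not called. The counts were 0 members and 0 list genes for ECKO and 2 members for Lats2 (Jag2 and Hes1).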
